A study of Mus musculus with 64 samples.

Results

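The Cyp3a genes encode the 3A subfamily of cytochrome P450 enzymes, which sit in the membrane of the endoplasmic reticulum and use a haem iron to oxidise steroid hormones, bile acids and many drugs. In rodent liver the subfamily is known to change its make-up around birth and to hold members expressed mainly in one sex. Transcription of its members is known to respond to xenobiotics through the nuclear receptors PXR and CAR, and sex differences in liver P450 genes are known to depend on the pattern of growth hormone release. Members were taken by symbol, as the 8 rows named Cyp3a11, Cyp3a13, Cyp3a16, Cyp3a25, Cyp3a41a, Cyp3a41b, Cyp3a44 and Cyp3a59 out of the 23338 genes counted in every library. Of the 8, 7 had at least 1 read in at least 1 library, and Cyp3a41b was listed at 0 reads in all 64.

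RNA-seq was used to compare male and female mice at several stages of development. The samples were 12 single eight-cell embryos at 2.5 dpc (6 male, 6 female), 4 lines of embryonic stem (ES) cells kept in 2i (2 male, 2 female), 24 fetal livers from late gestation (12 male, 12 female) and 24 livers of adults of 15 to 20 weeks (12 male, 12 female). The strain was labelled C57BL/6 in every group (C57BL/6 J in the study's methods) and no treatment was labelled. Which livers shared an animal, a litter or a sequencing lane was not given in the sources used here, so p-values measure the spread between these samples, and gender and lane cannot be told apart. The embryo libraries were made with a single-cell amplification protocol and the others with a total RNA kit, so levels were not compared between them. Reads counted on genes ranged from 5145371 to 8499603 per fetal liver and from 1567583 to 4757610 per adult liver, with 7 adult livers under 2000000 (3 male, 4 female). The level that 3 reads could show was between 0.353 and 0.583 CPM (the count relative to the library total) in fetal liver and between 0.631 and 1.91 in adult liver, before scaling, which covers counting error only. The Xist and Y-linked reads of all 64 libraries matched the gender label, which for embryos had itself been assigned from expression, and the hepatocyte markers (8 of 8 with reads in every liver group) marked the livers as such. Fetal liver female 14 stood apart, with a summed level of 4 intestinal epithelium markers of 2432 CPM against at most 10.9 in the other fetal female livers, so comparisons that rest on the fetal females are also given without it.

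The members lie on chromosome 5 of GRCm38. Cyp3a13 stands alone at chr5:137892933-137925610, and the other 7 lie 7.51 Mb away within 679 kb, between 145436309 and 146114978, in the order Cyp3a16, Cyp3a41b, Cyp3a41a, Cyp3a44, Cyp3a11, Cyp3a25 and Cyp3a59 (RefSeq, GRCm38.p6). Cyp3a59 is on the plus strand and the others on the minus strand. Every member has 13 exons in GENCODE M21 and codes for 503 or 504 amino acids. By coding sequence the members fell into 3 sets. Cyp3a25 and Cyp3a59 shared 97.5% of bases, Cyp3a16, Cyp3a41a, Cyp3a41b, Cyp3a44 and Cyp3a11 shared 92.4% to 99.9% with each other, and Cyp3a13 shared 75.2% to 76.8% with any other member. Cyp3a41a and Cyp3a41b differed at 2 of 1515 coding bases.

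This likeness limits which member a read can be assigned to, because reads aligned to more than 1 place were not counted. Of the 50-base windows of the Cyp3a41a transcript, 98.6% also occurred in the transcript of another gene, and the share was 93.5% for Cyp3a41b. It was 28% for Cyp3a59, 26.8% for Cyp3a25, 26.5% for Cyp3a44, 14.8% for Cyp3a11, 10.7% for Cyp3a16 and 0% for Cyp3a13. With 100-base windows the share stayed at 90.8% for Cyp3a41a and 88.2% for Cyp3a41b and was at most 6.05% for the others. The interval listed with the study for the Cyp3a41a row spans both loci, so the row named Cyp3a41a may hold reads of either gene, its level is a level of reads that could be placed, and the 0 of Cyp3a41b is no measurement of its RNA.

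**Figure D1:**
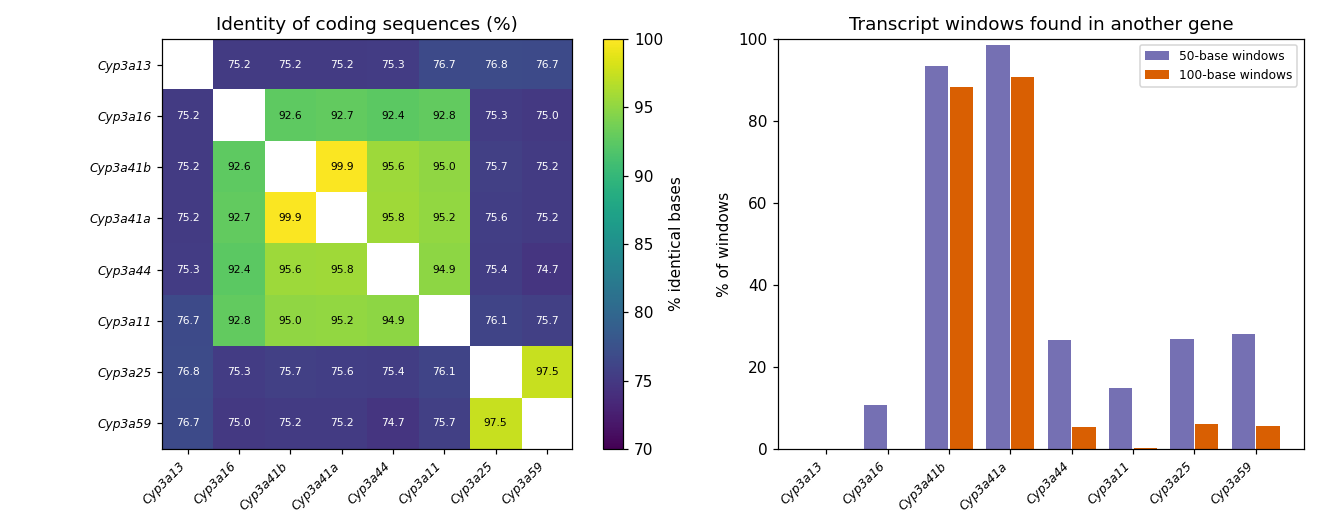
Left, identity of the coding sequences of each pair of the 8 Cyp3a genes, in percent of aligned bases; right, share of the windows of 50 bases (purple) and 100 bases (orange) of each transcript that also occur in a transcript of another gene. Cyp3a41a and Cyp3a41b stand out with 99.9% identity and at least 88.2% shared windows at either length.

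The upstream sequence is shown for the members whose liver levels depended most on gender (Cyp3a16, Cyp3a41a and Cyp3a44, with Cyp3a41b) and for Cyp3a11, the most abundant member in adults of both genders. Each sequence is the 250 bases before the RefSeq start, read 5′ to 3′ on the gene's strand (GRCm38.p6: Cyp3a16 chr5:145469724-145469973, Cyp3a41b chr5:145584731-145584980, Cyp3a41a chr5:145720137-145720386, Cyp3a44 chr5:145805875-145806124, Cyp3a11 chr5:145879855-145880104, all on the minus strand). For Cyp3a16, Cyp3a41b and Cyp3a44 the annotated gene reaches a few bases into this stretch. Capitals mark the letters of the 4 motifs found out of 6 searched.

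Cyp3a16: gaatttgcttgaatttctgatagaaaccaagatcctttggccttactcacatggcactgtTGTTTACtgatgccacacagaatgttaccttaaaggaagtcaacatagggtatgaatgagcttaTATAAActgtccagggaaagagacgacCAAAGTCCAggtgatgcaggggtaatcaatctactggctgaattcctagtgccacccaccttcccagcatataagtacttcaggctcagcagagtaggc
Cyp3a41b: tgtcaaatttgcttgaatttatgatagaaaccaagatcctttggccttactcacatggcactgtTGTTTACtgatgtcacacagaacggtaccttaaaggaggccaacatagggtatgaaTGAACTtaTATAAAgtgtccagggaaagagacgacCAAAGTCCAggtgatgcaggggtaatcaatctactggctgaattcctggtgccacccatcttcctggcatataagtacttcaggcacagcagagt
Cyp3a41a: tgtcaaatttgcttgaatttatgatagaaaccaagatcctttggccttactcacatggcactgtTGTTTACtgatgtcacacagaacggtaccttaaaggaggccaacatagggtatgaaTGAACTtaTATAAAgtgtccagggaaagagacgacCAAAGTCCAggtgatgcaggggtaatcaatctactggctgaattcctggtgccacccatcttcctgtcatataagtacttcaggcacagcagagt
Cyp3a44: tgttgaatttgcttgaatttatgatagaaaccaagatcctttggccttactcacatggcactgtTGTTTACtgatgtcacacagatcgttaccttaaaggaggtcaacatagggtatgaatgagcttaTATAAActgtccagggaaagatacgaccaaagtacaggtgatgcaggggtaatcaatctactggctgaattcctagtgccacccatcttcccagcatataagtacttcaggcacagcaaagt
Cyp3a11: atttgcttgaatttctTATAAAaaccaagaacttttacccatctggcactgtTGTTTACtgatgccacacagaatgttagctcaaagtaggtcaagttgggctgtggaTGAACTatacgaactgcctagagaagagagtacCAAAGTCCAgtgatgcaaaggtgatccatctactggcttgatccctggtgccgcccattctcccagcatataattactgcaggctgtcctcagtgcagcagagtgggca

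The 6 motifs were searched on both strands of the windows from 250 bases before to 50 after the start, in all 32851 RefSeq promoter windows. The FOXA letters TGTTTAC were in these 5 members and in 3.65% of all windows, and the TATA letters TATAAA were in the same 5 and in 13.6% of all windows. Counted from the start, TATAAA began at -126 in Cyp3a16, at -122 in Cyp3a41a, Cyp3a41b and Cyp3a44, and at -234 in Cyp3a11. Its place in Cyp3a11 thus did not match that in the others. The HNF4 letters CAAAGTCCA were in Cyp3a16, Cyp3a41a, Cyp3a41b and Cyp3a11 and in 0.475% of all windows. At the matching place, 95 bases before the start, Cyp3a44 carried the same letters with the single substitution C7A, counted from 1 at the motif's first base with Cyp3a41a as the reference. The PXR and CAR half-site letters TGAACT were in Cyp3a41a, Cyp3a41b and Cyp3a11 and in 14% of all windows. Where TGAACT and TATAAA stand close in Cyp3a41a they do not overlap. The STAT5 letters TTCNNNGAA (8.3% of all windows) and the C/EBP letters TTGCGCAA (0.183%) were in no member, and the windows of Cyp3a13, Cyp3a25 and Cyp3a59 held none of the 6. The 250 bases of Cyp3a13 (chr5:137921620-137921869) lie inside its annotated gene, so the sequence before that gene's outer end was not searched. Those of Cyp3a25 and Cyp3a59 end inside their annotated genes. Over the 250 bases, Cyp3a41a and Cyp3a41b differed at 1 base, Cyp3a16 and Cyp3a44 were 95.9% identical, Cyp3a41a and Cyp3a44 94.4%, and Cyp3a11 was 76.2% to 77.5% identical to the other 4. A match of letters is a description of the sequence and not a binding site.

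Before the liver stages the members were at or near 0. In the ES cell lines Cyp3a13 had 3 and 5 reads in the male lines and 7 and 11 in the female lines, at most 0.864 CPM, and the other members had 0. In the 12 embryos, female embryo 7 had 2 reads of Cyp3a13, and female embryo 10 had 30 reads of Cyp3a59 (5.04 CPM) and 1 of Cyp3a11. All other embryo counts of the members were 0, which allows at most 0.388 to 0.644 CPM per embryo before scaling. For Cyp3a41a and Cyp3a41b, most of whose windows are shared, the 0 sets no such limit.

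Between fetal and adult liver the family changed its leading member. In fetal liver Cyp3a16, long described as a fetal form, was the highest per kilobase of transcript, at 88.2 ± 11.4 CPM per kb in males and 84.6 ± 10.5 in females (SD, n = 12 each), against 43.7 ± 8.10 and 53.0 ± 10.7 for Cyp3a11 and 13.2 ± 3.11 and 13.3 ± 2.42 for Cyp3a13. In adult liver Cyp3a11, the main inducible form of mouse liver, led with 2528 ± 355 CPM per kb in males and 2071 ± 216 in females, ahead of Cyp3a25 with 663 ± 87.8 and 562 ± 83.4. As a share of the summed level per kb of all members, Cyp3a16 held a median of 59.7% in fetal males and 52.7% in fetal females, 1.65% in adult females and 0% in adult males. Cyp3a11 held 28.5%, 34.4%, 66.8% and 76.4% in the same order. The sum itself had a median of 150.4 CPM per kb in fetal males, 152.6 in fetal females, 3289 in adult males and 3127 in adult females, and its ranges in the 2 adult groups overlapped (2750 to 3795 and 2979 to 3651). These levels divide the reads that could be placed by the full transcript length. For Cyp3a41a, 98.6% of 50-base windows were shared, so its share and the adult female sum may be understated and the other shares overstated.

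**Figure D2:**
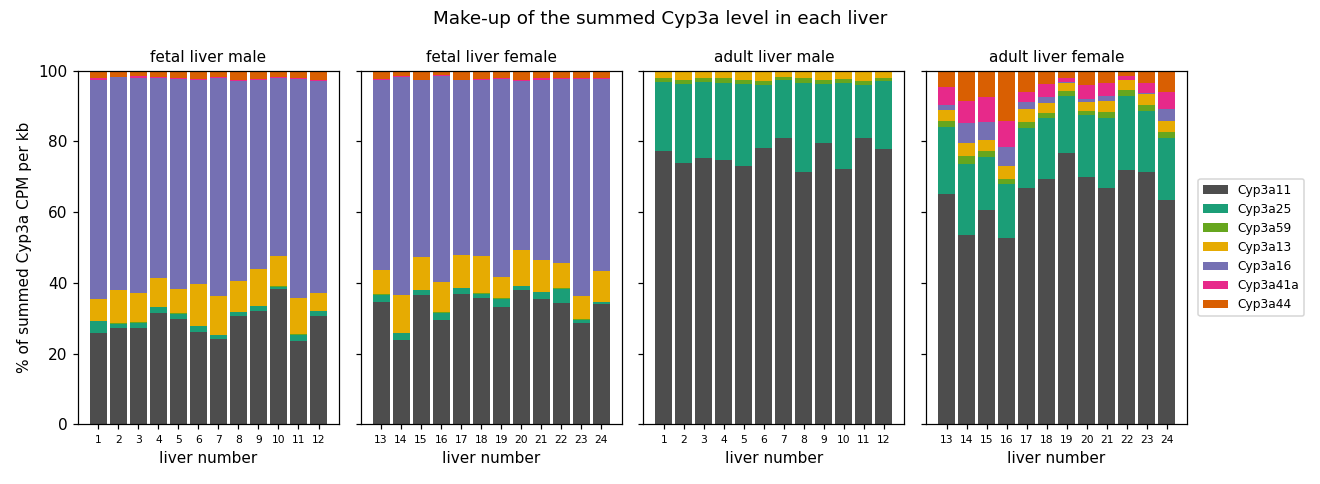
Share of each Cyp3a gene in the summed Cyp3a level per kilobase of transcript, in percent (y axis), from reads that could be placed, in each of the 48 livers (x axis, liver number, 12 per group). Cyp3a16 holds the largest share in the fetal livers (47.7% to 62.1%) and Cyp3a11 in the adult livers (52.8% to 81%), and Cyp3a16, Cyp3a41a and Cyp3a44 have visible shares in adult females but not in adult males.

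Cyp3a11 had a lowest, median and highest level of 68.3, 102 and 133 CPM in fetal males and 74.1, 125 and 155 CPM in fetal females. In adults these were 4714, 5905 and 7206 CPM in males and 3697, 4964 and 5636 CPM in females. No fetal liver came near the adult range. Here and throughout a gene is said to have risen, fallen or been called at adjusted p under 0.1 and an absolute log2 over 0.5, the fold minimum. The fitted log2 (adult/fetal) was 5.97 ± 0.12 (SE) in males (adjusted p = 1.7e-42, edgeR quasi-likelihood test) and 5.41 ± 0.12 in females (adjusted p = 4.8e-41).

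Cyp3a25, a liver member close in sequence to Cyp3a59, spanned 2.21 to 11.2 CPM (median 4.53) in fetal males and 1.99 to 12.7 CPM (median 5.23) in fetal females. In adults it spanned 1004 to 1552 CPM (median 1351) in males and 891 to 1469 CPM (median 1092) in females. This was the largest rise in males among the members, with a log2 of 8.29 ± 0.20 (adjusted p = 3.4e-37), and it reached 7.69 ± 0.19 in females (adjusted p = 2e-36).

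Cyp3a59 had only 2 to 5 reads per fetal male liver and 1 to 6 per fetal female liver, a mean of 0.415 and 0.40 CPM that is near the level of 3 reads. In adults it spanned 53.0 to 99.6 CPM (median 78.7) in males and 75.8 to 166 CPM (median 96.2) in females. The log2 was 7.56 ± 0.15 in males (adjusted p = 2.5e-44) and 8.02 ± 0.15 in females (adjusted p = 9.7e-46). Per kb of transcript Cyp3a59 stood far below Cyp3a25, at 38.9 ± 5.82 CPM per kb in adult males against 663 ± 87.8.

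Cyp3a13, known to be expressed in intestine as well as liver, rose least. It spanned 18.6 to 50.6 CPM (median 39.4) in fetal males and 29.3 to 49.5 CPM (median 38.8) in fetal females, against 185 to 298 CPM (median 213) in adult males and 199 to 374 CPM (median 288) in adult females. The log2 was 2.61 ± 0.12 in males (adjusted p = 2.5e-26) and 2.96 ± 0.12 in females (adjusted p = 1.7e-28). Fetal female 14, the liver with intestinal transcripts, had 41.9 CPM of Cyp3a13, inside the range of the other fetal females.

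Cyp3a16, Cyp3a44 and Cyp3a41a took different courses in the genders. Cyp3a16 spanned 126 to 186 CPM (median 149) in fetal males and 112 to 177 CPM (median 144) in fetal females. In adult males it had 0 reads in 9 of 12 livers and 1 or 2 in the others, 4 reads in all against 13244 in the fetal males, a ratio of summed levels of 1141 (95% counting interval 446 to 4189, exact). In adult females it spanned 6.80 to 371 CPM (median 92.8), a range that holds the whole fetal range. The log2 (adult/fetal) was -9.82 ± 0.71 in males (adjusted p = 4.1e-17) and -0.04 ± 0.27 in females (adjusted p = 0.89, 95% interval -0.58 to 0.49). In females the value differed between 2 subsets of the adult livers. It was 0.18 (edgeR adjusted p = 0.56) with those of at least 2000000 reads and -0.67 (edgeR adjusted p = 0.014) with those under 2000000. The subsets hold different livers (8 and 4 adult females), and the part of depth was not tested. Fitted log2 values against adult males depend on the prior count of the fit for this gene, Cyp3a41a and Cyp3a44.

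Cyp3a44, like Cyp3a41a a form described in female liver, spanned 4.23 to 7.34 CPM (median 6.17) in fetal males and 3.25 to 9.01 CPM (median 6.34) in fetal females. It fell to 4 reads over the 12 adult males, against 532 in the fetal males (ratio 45.8, interval 17.8 to 169), and rose to 90.5 to 826 CPM (median 260.3) in adult females. The log2 was -5.19 ± 0.89 in males (adjusted p = 8.2e-07) and 5.77 ± 0.24 in females (adjusted p = 3.1e-26). The stages did not overlap in either gender.

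Cyp3a41a had 2 to 15 reads per fetal male liver and 2 to 19 per fetal female liver, a mean of 0.938 and 0.996 CPM. Adult males had 3 reads in all, against 83 in the fetal males (ratio 9.54, interval 3.15 to 47.2), and adult females spanned 59.6 to 471 CPM (median 244). The log2 was -2.88 ± 1.37 in males (adjusted p = 0.047) and 8.13 ± 0.30 in females (adjusted p = 2.5e-28). In males the ranges of the stages overlapped, and with only the 3 adult males under 2000000 reads the call was lost (log2 -5.60, adjusted p = 0.14).

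Of the 7 members tested, 4 rose and 3 fell from fetal to adult liver in males, where 32.6% of the 13026 genes tested rose and 36.2% fell. In females 6 rose and 0 fell, where 31.1% of genes rose and 34.5% fell; by DESeq2 the count that fell was also 0, and 0 passed an unadjusted p under 0.05 downward. Without fetal female 14 the count in females was also 6 (Cyp3a11 log2 5.36, Cyp3a16 -0.05). Most genes were thus called by stage. The median log2 of the 7 members was 2.61 in males and 5.77 in females, and that of all genes tested was -0.05 and -0.04. The cell make-up of the tissue also differed by stage. All 8 erythroid markers tested, of 12 found, were lower in adults, their summed level falling from 6182 to 9136 CPM in fetal livers to 114 to 458 CPM in adult livers, while the 8 hepatocyte markers summed to 35198 to 47137 CPM in fetal and 65118 to 87954 CPM in adult livers. In bulk liver, fewer cells of a type and less RNA per cell cannot be told apart. Scaled to the summed hepatocyte markers, the log2 of Cyp3a11 was 5.05 in males and 4.30 in females. The log2 of Cyp3a16 in females was then -1.12 (edgeR adjusted p = 0.00048). This scaling moved the median of all genes to -0.95 in males and -1.15 in females, and relative to that median Cyp3a16 in females stood at 0.03. Taking off the median largely undoes the scaling, so the last value cannot say which scaling holds.

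**Figure D3:**
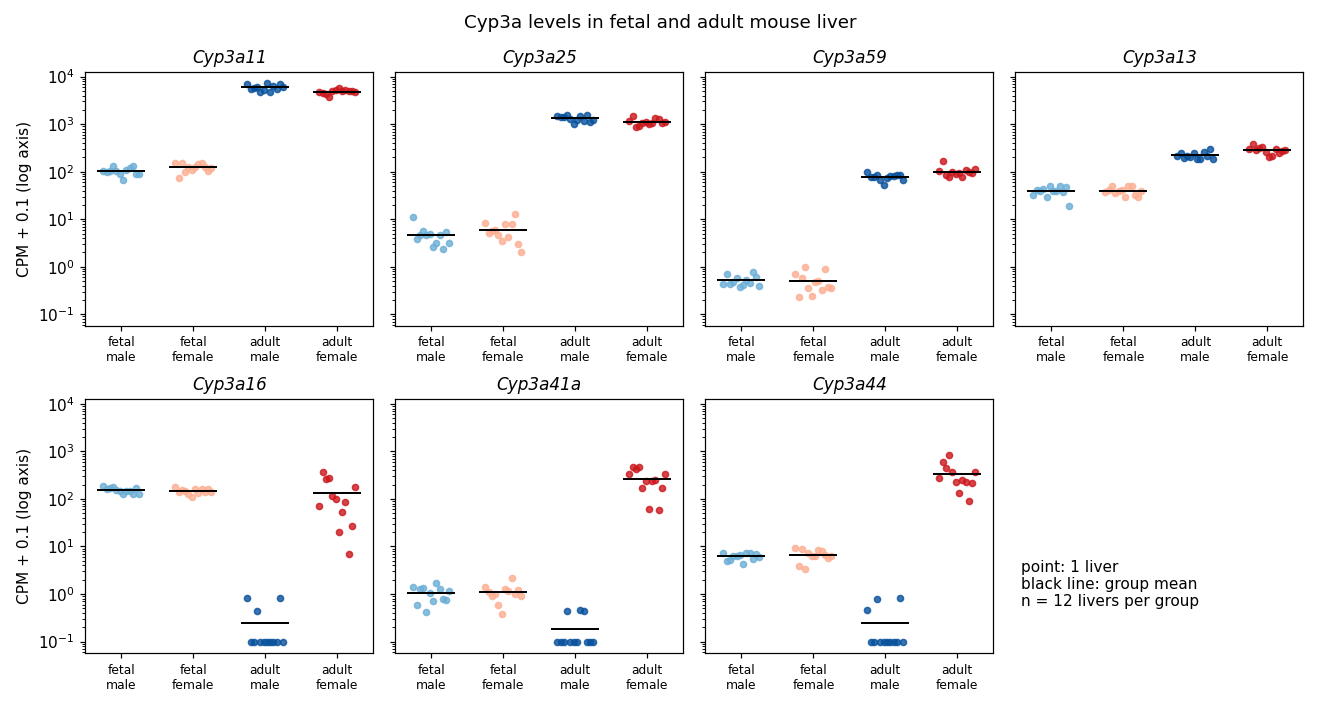
CPM plus 0.1 (y axis, log) of the 7 Cyp3a genes with reads, in fetal and adult, male and female liver; each point is 1 liver, n = 12 per group, and the black line is the group mean. Cyp3a11, Cyp3a25, Cyp3a59 and Cyp3a13 are higher in all adult livers, and Cyp3a16, Cyp3a41a and Cyp3a44 lie at 0 to 2 reads in adult males and spread widely in adult females.

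The order of the 4 liver groups by mean level followed from these values. For Cyp3a11 and Cyp3a25 it ran from fetal male through fetal female and adult female to adult male, for Cyp3a13 from fetal male through fetal female and adult male to adult female, and for Cyp3a59 from fetal female through fetal male and adult male to adult female. In these 4 members the only neighbours whose ranges did not overlap were a fetal and an adult group. For Cyp3a16 the order ran from adult male, apart from the rest, through adult female and fetal female to fetal male, and the last 3 overlapped. For Cyp3a44 it ran from adult male to fetal male, fetal female and adult female, with the fetal groups overlapping and the adult groups apart on either side. Cyp3a41a had the same order, but adult and fetal males also overlapped. By medians the order was the same for 5 of the 7, and the fetal genders changed places for Cyp3a13 and Cyp3a41a.

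Within adult liver the gender comparison asked which members differ between grown males and females. Cyp3a16, Cyp3a41a and Cyp3a44 were present in every adult female, with at least 17, 83 and 182 reads per liver, and at or under 2 reads in every adult male. Summed over the livers, the female to male ratio was 1025 for Cyp3a16 (3226 against 4 reads, interval 400.1 to 3766), 2737 for Cyp3a41a (6459 against 3 reads, interval 936 to 13277) and 2603 for Cyp3a44 (8190 against 4 reads, interval 1016 to 9557). The fitted log2 (male/female) was -9.46 ± 0.95 for Cyp3a16 (adjusted p = 5e-08), -10.78 ± 0.61 for Cyp3a41a (adjusted p = 2e-12) and -10.82 ± 0.58 for Cyp3a44 (adjusted p = 6.6e-13). Of the 7 members, 3 were called lower in males, where 6.49% of the 10372 genes tested were called lower, and 0 were called higher, where 3.01% of genes were; by DESeq2 the count called higher was also 0, and 2 passed an unadjusted p under 0.05 in that direction.

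The other 4 members differed by less than the fold minimum, and their genders overlapped. Cyp3a11 averaged 5925 ± 833 CPM in adult males and 4853 ± 506 in adult females, with a log2 (male/female) of 0.27 ± 0.08 (adjusted p = 0.015). Cyp3a25 averaged 1326 ± 176 and 1123 ± 167 CPM, with a log2 of 0.22 ± 0.07 (adjusted p = 0.031). The other two lay toward females. Cyp3a13 averaged 221 ± 36.1 CPM in males and 282 ± 49.1 in females, with a log2 of -0.37 ± 0.09 (adjusted p = 0.0038). Cyp3a59 averaged 77.4 ± 11.6 and 100.6 ± 23.7 CPM, with a log2 of -0.40 ± 0.10 (adjusted p = 0.0038). With no fold minimum, 2 members passed toward males, where 15.1% of genes did, and 5 toward females, where 17.7% did.

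The adult genders also differed in features of the libraries. The share of alignments that were not unique was 42.2% to 61.1% in males and 32.7% to 43.2% in females. When libraries were scaled to all alignments listed, those not unique included, the median log2 of all genes moved to -0.35. The log2 of Cyp3a11 became -0.09 and that of Cyp3a25 -0.13, both turned in sign, and Cyp3a13 and Cyp3a59 passed the fold minimum at -0.74 and -0.75. Relative to that median Cyp3a11 stood at 0.26, Cyp3a25 at 0.22, Cyp3a13 at -0.39 and Cyp3a59 at -0.40. Taking off the median largely undoes the scaling, so these values cannot say which scaling holds. Of the 6 macrophage markers, 3 were lower in males, where 6.49% of all genes were. Their summed level was 256 to 487 CPM in males and 355 to 729 in females. Of the 2 erythroid markers tested in adults, the haem synthesis gene Alas2 was higher in males (212 against 29.97 CPM) and the globin row Beta-s was not called, and the summed level of the 12 was 305 to 458 CPM in males and 114 to 308 in females. Their part in the small differences was not tested.

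**Figure D4:**
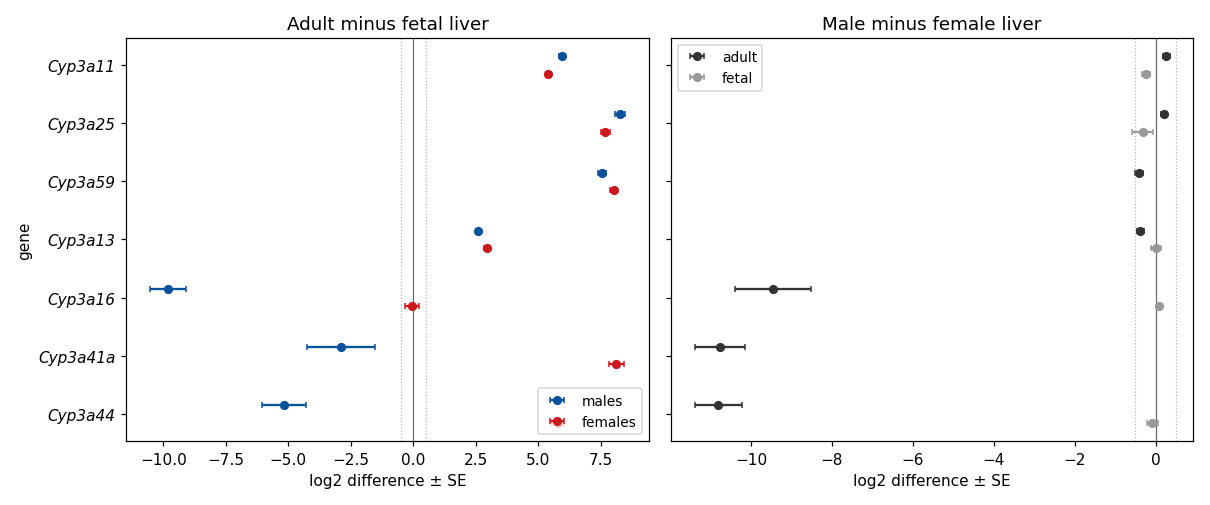
Fitted log2 differences of 7 Cyp3a genes with their standard errors (x axis), left for adult minus fetal liver in males and females, right for male minus female in adult and fetal liver (12 livers per group); dotted lines mark the fold minimum of 0.5. In adults Cyp3a16, Cyp3a41a and Cyp3a44 lie beyond -9 on the right while the other members lie within the dotted lines, and in fetal liver all 5 members tested lie within them.

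In fetal liver 5 members passed the filter on low counts and 0 were called between the genders, where 3.81% of the 12930 genes tested were called higher in males and 0.828% lower; DESeq2 also called 0, and 1 had an unadjusted p under 0.05. That member was Cyp3a11, with 102 ± 18.99 CPM in males and 124 ± 25.1 in females and a log2 (male/female) of -0.24 ± 0.11 (adjusted p = 0.091, under the threshold without the fold minimum as were 19.5% of genes in that direction). Cyp3a16 had a log2 of 0.10 ± 0.07 (95% interval -0.04 to 0.23) and Cyp3a44 of -0.08 ± 0.13 (-0.34 to 0.18), so a difference of the adult size was outside both intervals. Cyp3a13 had 0.02 ± 0.12 and Cyp3a25 -0.32 ± 0.26. Cyp3a41a and Cyp3a59 did not pass the filter. The share of counted reads outside genes separated the fetal genders, at 39.9% to 49.0% in males and 34.1% to 38.1% in females, and without fetal female 14 the count called was also 0 (Cyp3a11 log2 -0.29, adjusted p = 0.021).

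The change of the gender difference with stage was tested in the 48 livers together. The difference of the log2 (male/female), adult minus fetal, was -9.78 ± 0.85 for Cyp3a16 (adjusted p = 1.9e-12), -11.01 ± 1.10 for Cyp3a41a (adjusted p = 9.2e-11) and -10.96 ± 0.65 for Cyp3a44 (adjusted p = 6.4e-18). It was 0.55 ± 0.14 for Cyp3a11 (adjusted p = 0.0023), whose mean lay toward females in the fetus and toward males in the adult, and 0.59 ± 0.25 for Cyp3a25 (adjusted p = 0.067). Thus 3 members were called in the negative direction, where 8.53% of 13026 genes were, and 2 in the positive, where 5.18% were. Cyp3a13 at -0.35 ± 0.16 (adjusted p = 0.097) did not reach the fold minimum but was called at -0.51 (adjusted p = 0.021) with only the livers of at least 2000000 reads, and Cyp3a59 at -0.45 ± 0.37 (adjusted p = 0.4) passed neither threshold. Scaling to all alignments listed moved the median of all genes to -0.27. Under it the calls of Cyp3a11 (0.25, adjusted p = 0.16) and Cyp3a25 (0.31, adjusted p = 0.38) were lost and Cyp3a13 was called (-0.65, adjusted p = 0.0016). Relative to that median they stood at 0.52, 0.58 and -0.38, values that largely undo the scaling and cannot say which scaling holds. The call of Cyp3a25 was also lost, at a log2 of 0.59 (adjusted p = 0.14), with only the livers of at least 2000000 reads, at 0.51 (adjusted p = 0.44) with the adult livers under 2000000, and at 1.06 (adjusted p = 0.22) with the share of reads outside genes as covariate. Without fetal female 14, 5 members were called, Cyp3a11 at 0.61 and Cyp3a25 at 0.61.

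Adult females differed widely among themselves in the 3 members that males lacked. The highest female liver had 54.5 times the lowest in Cyp3a16, 7.91 times in Cyp3a41a and 9.14 times in Cyp3a44, against 1.52 times in Cyp3a11, 1.65 in Cyp3a25, 1.88 in Cyp3a13 and 2.19 in Cyp3a59. The SD of log2 CPM of Cyp3a16 was 1.69 in adult females and 0.18 in fetal females. The same livers stood at the ends: female 22 was lowest in all 3, with 6.80, 59.6 and 90.5 CPM of Cyp3a16, Cyp3a41a and Cyp3a44, and female 19 was second lowest, with 19.9, 61.1 and 134 CPM. Female 14 was highest in Cyp3a16 and Cyp3a41a, with 371 and 471 CPM, and female 16 in Cyp3a44, with 826 CPM. Of the adult females, female 22 had the most reads on genes (3043818), and female 19 was among the shallowest (1575399). The share of counted reads outside genes was 25.7% to 28.4% in females 13 to 18 and 30.1% to 36.6% in females 19 to 24. Females 14 and 16 thus lay in the set with the lower share, and females 19 and 22 in the other. The part of this share in the spread, and in the correlations between members, was not tested.

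Over the 12 adult females the 3 members moved together in log2 CPM. Among 27 pairs of members examined in adult liver, 21 in females and 6 in males, Cyp3a16 and Cyp3a44 had r = 0.94 (permutation p = 2e-05, adjusted 0.00027) and rho = 0.93 (permutation p = 5e-05, adjusted 0.0013). Cyp3a16 and Cyp3a41a had r = 0.91 (permutation p = 2e-05, adjusted 0.00027) and rho = 0.85 (permutation p = 0.00084, adjusted 0.0057). Cyp3a41a and Cyp3a44 had r = 0.88 (permutation p = 0.00013, adjusted 0.0012) and rho = 0.86 (permutation p = 0.00058, adjusted 0.0052). Without the 2 livers farthest from the median of the first gene, r was 0.87, 0.81 and 0.74, and over the 8 females of at least 2000000 reads it was 0.94, 0.92 and 0.89. The 3 transcripts share windows with one another, and the part of shared sequence in the correlations was not tested.

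Cyp3a11 went the other way in the same livers. Against Cyp3a44 it had r = -0.82 (permutation p = 0.0009, adjusted 0.0061) and rho = -0.88 (permutation p = 0.00028, adjusted 0.0038), with r = -0.87 without the 2 farthest livers and -0.79 over the 8 deeper ones. Female 16, highest in Cyp3a44, was lowest in Cyp3a11 with 3697 CPM, and female 19 was highest in Cyp3a11 with 5636 CPM. Cyp3a13 was higher in livers with more Cyp3a44, with r = 0.71 (permutation p = 0.01, adjusted 0.043) and rho = 0.73 (permutation p = 0.0094, adjusted 0.028), and r = 0.81 without the 2 farthest livers. Cyp3a25 and Cyp3a59 formed a pair of their own in both genders, with r = 0.80 in females (permutation p = 0.0016, adjusted 0.0084; rho = 0.83, permutation p = 0.0015, adjusted 0.0083) and r = 0.67 in males (permutation p = 0.014, adjusted 0.043; rho = 0.61, permutation p = 0.04, adjusted 0.098). Without the 2 farthest livers r was 0.66 and 0.60. The coding sequences of Cyp3a25 and Cyp3a59 were 97.5% identical, and the part of shared sequence in their correlation was not tested. Cyp3a41a and Cyp3a13 had r = 0.65 (permutation p = 0.022, adjusted 0.054) and rho = 0.66 (permutation p = 0.024, adjusted 0.066), but r was 0.40 without the 2 farthest livers, so that relation rests on them. In all, 10 of the 21 female pairs and 1 of the 6 male pairs had adjusted p under 0.1 by both r and rho. These counts cover unlike sets, since Cyp3a16, Cyp3a41a and Cyp3a44 were paired only in females. Among pairs of Cyp3a11, Cyp3a13, Cyp3a25 and Cyp3a59, only Cyp3a25 with Cyp3a59 passed in either gender. No share over all pairs of genes was computed.

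**Figure D5:**
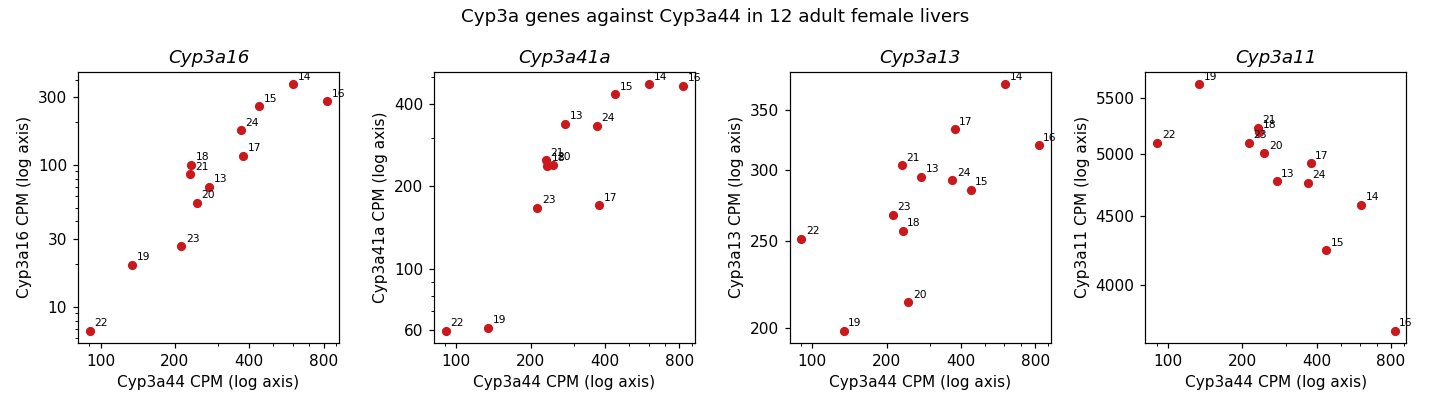
CPM of Cyp3a16, Cyp3a41a, Cyp3a13 and Cyp3a11 (y axes, log) against CPM of Cyp3a44 (x axis, log) in the 12 adult female livers, each point labelled with its liver number. Cyp3a16, Cyp3a41a and Cyp3a13 are higher in livers with more Cyp3a44 (r = 0.94, 0.88 and 0.71), and Cyp3a11 is lower (r = -0.82).

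By the same measure over the 24 adult livers, each centred on the mean of its gender, the non-member most like Cyp3a16 was the sulfotransferase gene Sult2a1 (r = 0.84), followed by Sult2a2 (0.75) and Cog4 (0.74). Sult2a1 also led for Cyp3a41a (0.87, then Pxmp2 at 0.84 and Mina at 0.83) and was the second for Cyp3a44 (0.75, between Gsdmd at 0.76 and Csrp3 at 0.73). For Cyp3a13 the 3 most alike were Zfp445 (0.73), Ang (0.71) and Rnase4 (0.68), for Cyp3a25 they were 4933403F05Rik (0.74), Cnn3 (0.74) and Cmtm8 (0.74), for Cyp3a59 Ddx3y (0.73), Tax1bp3 (0.68) and Slc5a6 (0.66), and for Cyp3a11 Samd4b (0.62), Setd1a (0.62) and Brd2 (0.61). These are the highest of 8792 genes, picked for being highest. The values for Cyp3a16, Cyp3a41a and Cyp3a44 rest on the 12 females, since males had at most 2 reads, and that of Ddx3y, a Y-linked gene, rests on the 12 males. Rnase4 and Ang are known to share a promoter.

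By the means of the 4 liver groups, the closest patterns to Cyp3a41a and Cyp3a44 were those of other P450 genes. Cyp2b13 was nearest to Cyp3a41a, at a distance of 0.22 on the log2 scale, with 0.915 and 0.853 CPM in fetal males and females, 0.118 in adult males and 283 in adult females, followed by Cyp2c69 (1.26) and Cyp2a4 (1.34). Cyp2b9 was nearest to Cyp3a44 (0.64), followed by Cyp2c69 (0.94) and Sult2a1 (1.61). Cyp3a16 had no near match: Hao2 stood at 1.31, the growth hormone dependent repressor Cux2 at 2.26 and Nipal1 at 2.36. Cux2 averaged 35.4 CPM in fetal males, 29.8 in fetal females, 0.476 in adult males and 36.6 in adult females. Nearest to Cyp3a11 were C4bp (0.11), Acaa1b (0.13) and Nr0b2 (0.16), nearest to Cyp3a25 were Cyp2e1 (0.28), Glyat (0.30) and G6pc (0.31), nearest to Cyp3a13 were Ifitm3 (0.07), Acot12 (0.08) and Cyp4b1 (0.09), and nearest to Cyp3a59 were Apol9a (0.17), Slc1a2 (0.26) and Slco2b1 (0.28). Distances were taken on log2(CPM + 0.5), which draws levels near or under 0.5 CPM together. Apol9a averaged 0.023 and 0.052 CPM in fetal males and females, against 0.415 and 0.40 for Cyp3a59. Their rises thus differ more than the distance shows. Levels that low also enter for Nr0b2 in fetal males (0.368 CPM) and, in adult males, for Cyp2b13 and Cyp3a41a.

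P450 enzymes need electrons and haem. Of 10 genes of redox partners and haem handling, 7 rose and 2 fell from fetal to adult liver in each gender (of all genes, 32.6% rose and 36.2% fell in males and 31.1% and 34.5% in females), with a median log2 of 1.55 in males and 1.68 in females. The membrane haem protein Pgrmc1 went from 227 ± 10.4 to 1730 ± 132 CPM in males (log2 3.04 ± 0.05, adjusted p = 1.7e-48). The electron donor cytochrome b5, listed under its older symbol Cyb5, had a log2 of 2.38 ± 0.06 in males and 2.23 ± 0.06 in females, and the outer mitochondrial form Cyb5b one of 3.29 ± 0.08 and 3.003 ± 0.080. Between adult males and females 1 of the 10 was called, lower in males, where 6.49% of all genes were called lower and 3.01% higher. This was Por, the reductase that serves all microsomal P450 enzymes, which averaged 240.1 ± 77.5 CPM in males and 359 ± 67.1 in females (log2 -0.60 ± 0.14, edgeR adjusted p = 0.003).

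Of the 19 nuclear receptors and liver transcription factors tested, of 20 listed, 14 rose from fetal to adult liver in each gender and the other 5 were not called (32.6% and 31.1% of all genes rose in males and females), with a median log2 of 1.51 in males and 1.34 in females. Rxra, the partner of PXR and CAR, had a log2 of 2.06 ± 0.06 in males and 1.95 ± 0.06 in females. Nr1i3, which encodes CAR, had 5.03 ± 0.17 in females, and Nr1h4, the bile acid receptor, 2.38 ± 0.09. In males Hnf4a had 1.94 ± 0.07 and Nr0b2, a receptor that lacks a DNA-binding domain, 6.99 ± 0.25 from 0.368 CPM in fetal males. In adults 1 of the 19 was lower in males and 2 were higher, where 6.49% of all genes were lower and 3.01% higher. Nr1i3 averaged 167 ± 41.2 CPM in males and 263 ± 67.8 in females (log2 -0.68 ± 0.14, adjusted p = 0.00068), Cebpb 116 ± 52.2 and 60.6 ± 19.5 (0.91 ± 0.24, adjusted p = 0.0067) and Foxa3 80.7 ± 25.8 and 53.4 ± 15.9 (0.57 ± 0.18, adjusted p = 0.023).

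Of 14 genes of growth hormone signalling, 5 were lower and 1 higher in adult males than in adult females, where 6.49% of all genes were lower and 3.01% higher. The lower ones were Cux2 (log2 -6.07 ± 0.27, adjusted p = 4e-18), Trim24 (31.4 ± 12.6 and 103 ± 19.6 CPM, log2 -1.75 ± 0.17, adjusted p = 1.2e-08), Igfals (-0.67 ± 0.08, adjusted p = 1.9e-08), Tox (-1.42 ± 0.21, adjusted p = 3e-06) and Socs2 (-2.14 ± 0.34, adjusted p = 4e-05). The repressor Bcl6 was higher in males, at 46.0 ± 28.5 against 12.8 ± 10.8 CPM (log2 1.79 ± 0.43, adjusted p = 0.0035). From fetal to adult liver 5 rose and 3 fell in males, where 32.6% of all genes rose and 36.2% fell. In females 9 rose and 2 fell, where 31.1% of all genes rose and 34.5% fell. Among those that rose in both genders were the receptor Ghr (log2 3.15 ± 0.06 and 2.90 ± 0.06), Igf1 (4.599 ± 0.119 and 5.02 ± 0.12) and the carrier subunit Igfals (3.77 ± 0.08 and 4.27 ± 0.08). These lists stand beside the members as description only, and no link between them and the members was tested.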

How the data were processed

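RNA-seq reads of 64 mouse samples were processed by the authors and deposited as raw counts per gene. Per the labels and the study's methods, reads were aligned to mm10 with TopHat2 2.0.4 and Bowtie2 2.1.0, handled with SAMtools 0.1.18, cleared of duplicates with Picard and counted on genes with HTSeq, for which no version is given. Removing duplicates lowers high counts most, and reads aligned to several places were not counted. Read length is not given in the sources used here. Fetal livers were taken at 17.5 dpc, and embryo gender was assigned by the study from expression.

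Rows naming no gene were kept out of library sizes; between 8.63% and 49.0% of the reads in a file lay outside genes. CPM values were computed from the deposited counts with TMM factors. Gender within each stage, stage within each gender and their interaction were tested with edgeR 4.0.16 (R 4.3.3; quasi-likelihood F test, filterByExpr, Benjamini-Hochberg over all genes), the last 2 in 1 fit of 48 livers. A gene was called at adjusted p under 0.1 and absolute log2 over 0.5. The method was tested on simulated data. The SE of a log2 value was worked back from the test, as the absolute log2 over the square root of the F statistic. Intervals are 95% exact counting intervals or fit intervals, the latter from this SE by a normal approximation. Correlations used log2(CPM + 0.5) and 100000 permutations in Python 3.11.15 (SciPy 1.17.1, NumPy 2.4.6, pandas 2.3.3). Coding identities used Biopython 1.88, with sequences from RefSeq and GENCODE, and figures matplotlib 3.10.9. Alternatives were DESeq2 1.42.0, median-of-ratios scaling, no filter, no fold minimum, summed Cyp3a41a and Cyp3a41b, depth subsets, a covariate for reads outside genes, marker scaling, the sample number as a block, plain CPM, and, chosen after seeing the data, scaling to all alignments, the livers under 2000000 reads and leaving out fetal female 14.

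The members and gene lists were chosen with earlier results of these data known. Genes named are the 8 members, the genes of each list called between adult genders, the 3 called genes of each list with the smallest adjusted p by stage, and for each member the 3 genes most alike by either measure. The correlation measure took genes of at least 10 CPM in adult liver. The group-mean measure took all genes tested by stage, with no CPM minimum. No 2 libraries of a group held identical counts.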

Additional observations from a re-analysis of the deposited data

Results flagged for a closer look

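In the eight-cell embryos the reads of 3 members came from single embryos that stood apart from the other 5 of their group. Female embryo 10 had 30 reads of Cyp3a59 and 1 read of Cyp3a11, and female embryo 7 had 2 reads of Cyp3a13, with 0 in every other embryo. In each case the reads lay in 1 embryo with 0 in the rest, which stands apart by construction, so the chance rate of about 1 in 20 groups does not apply. Female embryo 10 also had the highest summed hepatocyte markers of its group, 56.4 CPM against 40.1 for the next, and the part of this in its Cyp3a59 reads was not tested.

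The gender difference changed with stage by the test of the difference itself for 5 members. The difference of log2 (male/female), adult minus fetal, was -9.78 for Cyp3a16, -11.01 for Cyp3a41a, -10.96 for Cyp3a44, 0.55 for Cyp3a11 and 0.59 for Cyp3a25. The adult side of the first 3 rests on 3 or 4 reads over 12 male livers.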

How the results depend on the processing

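Of the recomputed counts of called members, 48 stayed within 1.5 times the reported count and 3 did not. With no fold minimum 7 members were called between adult genders and 1 between fetal genders, and 5 between adult genders when scaled to all alignments listed, an alternative chosen after seeing the data. Directions turned for Cyp3a11 (-0.090) and Cyp3a25 (-0.13) between adult genders under that scaling (0.26 and 0.22 relative to the median of all genes, which it moved to -0.35), for Cyp3a13 (-0.32) and Cyp3a16 (-0.027) between fetal genders with the share of reads outside genes as covariate, for Cyp3a13 (-0.010) between fetal genders in 1 fit of 48 livers and for Cyp3a16 by stage in females (0.18) in livers of at least 2000000 reads; for the last 4 the cause was not tested. Cyp3a16 by stage in females was called lower in 3 of 11 alternatives, scaled to hepatocyte markers (-1.12, against a median of all genes of -1.15), scaled to all alignments (-0.69, median -0.69) and in adult livers under 2000000 reads (-0.67). Setting a value against the median of all genes largely undoes a scaling and cannot say which scaling holds. In the shallower adult livers Cyp3a41a lost its call between genders at a log2 of -11.30 (adjusted p = 0.11, edgeR), a subset of 3 males and 4 females. Sample numbers did not pair the fetal and adult livers (median correlation -0.003 over 24 pairs, 0 of them over 0.1). With the number as a replicate block 4 members instead of 5 had a called interaction (Cyp3a25 0.57, adjusted p = 0.13, edgeR), and 7 and 6 were called by stage in males and females. Over all genes, calls between adult genders went from 985 (312 higher, 673 lower) to 2873 (132 higher, 2741 lower) scaled to all alignments, 3399 with no fold minimum, 1518 with no filter and 554 in the shallower livers. Between fetal genders they went from 600 to 9 with the covariate, 4807 with no fold minimum and 1057 with no filter. For the interaction they went from 1786 to 744 with the covariate, 3103 (249 higher, 2854 lower) scaled to all alignments and 4382 with no fold minimum. By stage, marker scaling moved the split from 4249 higher and 4712 lower to 1803 and 8412 in males, and from 4057 and 4493 to 1426 and 9333 in females, and scaling to all alignments gave 1756 and 8520 in males and 2187 and 7393 in females. Plain CPM gave lower adult levels, such as 4799 for Cyp3a11 in males. Apart from fetal female 14, single livers were not left out, since groups held 12.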
